A study of Mus musculus with 5 samples.

Results

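Binding of NEUROD2, a basic helix-loop-helix transcription factor of excitatory cortical neurons, was examined at the genes of 9 neuronal kinesins: Kif21a and Kif21b of the kinesin-4 family, Kif5a, Kif5b and Kif5c of kinesin-1, Kif1a and Kif1b of kinesin-3, and Kif3a and Kif3c of kinesin-2. A peak was counted for a gene if its midpoint lay within the span of the gene's longest-span transcript or up to 50 kb from either end, and overlapping peaks were merged into regions at each locus. This gave 60 regions of the 53837 in the whole series. Of these, 38 held peaks of at least 2 antibodies, out of 32262 in the series, and are called shared regions here. The list was drawn up with earlier results of these data in view, and Kif21b was chosen by its high closest-gene score, a sum over the shared regions nearest to its transcription start site (TSS). All values below come from the same peak lists as that choice and are given as a description, without a test.

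The samples were cerebral cortex, the dorsal telencephalon, of E14.5 embryos of the BALB/c mouse strain, without any treatment or genetic change stated in the labels. Chromatin was immunoprecipitated with 3 NEUROD2 antibodies, ab1, ab2 and ab3, in 1 library each, and with GFP antibodies in 2 control libraries, against which the authors called the peaks and which were not analysed here on their own. Each immunoprecipitation pooled embryos from several mothers, and the antibody used and the pool it was used on cannot be told apart. All 3 NEUROD2 libraries are of the same strain, stage and tissue, so no groups are compared. The cortex was not sorted, so a low peak score from few bound cells and a low score from weak binding in many cells cannot be told apart. Peak lists hold no RNA levels, so the tissue label was not checked against marker genes.

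At the kinesin loci lay 62 of the 51841 peaks called with ab1, 40 of the 35310 called with ab2 and 10 of the 7470 called with ab3. The score of a peak is 10 times the −log10 p-value given by the peak caller, and it was not scaled between libraries. Regions are therefore ranked by their scores within an antibody, and where scores of different antibodies are summed or set against each other the result depends on the libraries as well as on the binding. A typical ab1 peak scored 149, a typical ab2 peak 127 and a typical ab3 peak 89.4 (medians over all peaks). The highest ab1 score at the kinesin loci, 3100, was given to 661 ab1 peaks in the series and exceeded by 69, so differences among many of the strongest ab1 peaks cannot be seen. The ab3 list is the shortest of the 3, and the lack of an ab3 peak says only that none passed the authors' cutoff in that library.

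Kinesins are motor proteins that hydrolyse ATP to move along microtubules. In neurons, most of them carry cargo from the cell body toward axon tips and into dendrites, and some regulate the growth of microtubules. The kinesin-1 heavy chains encoded by Kif5a, Kif5b and Kif5c pair with light chains and carry vesicles and mitochondria. Kif1a and Kif1b of kinesin-3 carry precursors of synaptic vesicles, and an isoform of Kif1b carries mitochondria. Kif3a and Kif3c are kinesin-2 subunits, where Kif3a forms heterodimers with Kif3b or with Kif3c, and Kif21a and Kif21b of kinesin-4 move along microtubules and restrain their growth.

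The regions with peaks of all 3 antibodies were at Kif21b and Kif5c, none of them within 1 kb of the TSS of its kinesin gene. In the series, 92.8% of such regions lay beyond 1 kb of the TSS of any gene. The sites below show what they hold: for each of these 10 regions, which were singled out after their values had been seen, 60 bases are given around the extended E-box nearest to the region's midpoint that lies clear of annotated untranslated exons. The extended E-box is the core CAGCTG, the core CAGATG, its reverse complement CATCTG or the core CATATG, read on either strand, with G or T as the next base, and every one of these cores also fits the looser word CANNTG. Capitals mark that nearest extended E-box alone, other extended E-boxes in the printed bases stay in lower case, and positions are in mm10 and count from 1. The distance in each name is that of the region's midpoint from the TSS. At Kif21b the printed words of the regions at 27.3 and 11.5 kb upstream and at 2.11 kb and 6285 bp downstream lie 203, 862, 107 and 218 bp from the region's midpoint, outside its central 200 bp. The region at 11.5 kb holds another extended E-box in its central 200 bp, beside an untranslated exon of the neighbouring gene Cacna1s, which is not printed.
Kif21b, region 36.5 kb upstream of the TSS, chr1:136094832-136094891, plus strand: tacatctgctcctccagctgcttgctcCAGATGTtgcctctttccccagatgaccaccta
Kif21b, region 27.3 kb upstream, chr1:136103848-136103907, plus strand: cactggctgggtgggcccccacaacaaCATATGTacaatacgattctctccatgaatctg
Kif21b, region 11.5 kb upstream, chr1:136119014-136119073, plus strand: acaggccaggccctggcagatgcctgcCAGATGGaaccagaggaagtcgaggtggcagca
Kif21b, region 9.19 kb upstream, chr1:136122191-136122250, minus strand: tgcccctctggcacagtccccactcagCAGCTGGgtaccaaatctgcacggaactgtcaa
Kif21b, region 2.11 kb downstream of the TSS, chr1:136133574-136133633, plus strand: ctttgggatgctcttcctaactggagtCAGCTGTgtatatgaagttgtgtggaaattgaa
Kif21b, region 6285 bp downstream, chr1:136137427-136137486, minus strand: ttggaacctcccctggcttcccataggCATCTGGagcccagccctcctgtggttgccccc
Kif5c, region 53.3 kb downstream, chr2:49672567-49672626, plus strand: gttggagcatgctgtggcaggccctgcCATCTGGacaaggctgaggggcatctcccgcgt
Kif5c, region 122 kb downstream, chr2:49741818-49741877, minus strand: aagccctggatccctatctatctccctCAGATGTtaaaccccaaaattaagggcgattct
Kif5c, region 126 kb downstream, chr2:49745545-49745604, plus strand: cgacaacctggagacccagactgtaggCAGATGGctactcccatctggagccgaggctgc
Kif5c, region 129.8 kb downstream, chr2:49749133-49749192, plus strand: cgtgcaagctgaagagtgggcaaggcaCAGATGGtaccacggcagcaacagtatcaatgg

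For comparison, the corresponding site was printed from the highest-scored shared region of 6 of the other 7 members, where an extended E-box was not required if the region held none. No sequence is printed for Kif5b, whose highest-scored region held 2 extended E-boxes in its central 200 bp. The printed words of Kif5a, Kif1a and Kif1b lie 376, 350 and 356 bp from the midpoints of their regions. The Kif5a region holds another extended E-box in its central 200 bp, which is not printed. As the regions of Kif21a and Kif3c held no extended E-box, their capitals mark a CANNTG word of another form.
Kif21a, region at its TSS, chr15:91049629-91049688, plus strand: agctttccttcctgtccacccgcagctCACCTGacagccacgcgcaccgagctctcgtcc
Kif5a, region 74.8 kb from its TSS, chr10:127188926-127188985, minus strand: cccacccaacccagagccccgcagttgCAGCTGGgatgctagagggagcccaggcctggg
Kif1a, region at its TSS, chr1:93100856-93100915, plus strand: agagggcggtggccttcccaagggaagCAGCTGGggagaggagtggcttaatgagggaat
Kif1b, region at its TSS, chr4:149306854-149306913, plus strand: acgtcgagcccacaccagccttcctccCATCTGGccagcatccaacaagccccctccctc
Kif3a, region 44.2 kb upstream, chr11:53523100-53523159, plus strand: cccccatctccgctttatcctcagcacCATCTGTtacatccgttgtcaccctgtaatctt
Kif3c, region 62.0 kb from its TSS, chr12:3427264-3427323, plus strand: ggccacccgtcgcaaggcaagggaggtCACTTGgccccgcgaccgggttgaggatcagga

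All 9 kinesin genes had a shared region in their window, against 67.6% of 21938 protein-coding genes. With flanks of 10 kb in place of 50 kb, Kif3a and Kif3c had 0 shared regions and Kif5a had 1. The number was very uneven. Kif21b had 11 shared regions and Kif5c had 9, so that this pair held 20 of the 38, while the other 7 genes had between 1 and 4 each. With peaks scoring at least 100 alone, Kif21b had 9, Kif5c 5, Kif1b 2, and Kif5b and Kif3a 1 each, while the counts of the other genes stayed the same. A count of at least 9 was found in 3.86% of protein-coding genes and a count of at least 11 in 2.40%. Kif21a had 4 shared regions, Kif5a, Kif1b and Kif3a 3 each, Kif5b and Kif1a 2 each, and Kif3c 1. The members' median of 3 stood beside a median of 1 over protein-coding genes, but their windows were longer, with a median gene span of 46.6 kb against 17.2 kb. Per 100 kb of window, Kif21b had 7.50 shared regions, Kif5c 3.52 and the median member 1.85, against a median of 0.9499 over protein-coding genes. By this density Kif21b stood above 98.9% of protein-coding genes and Kif5c above 87.7%. Inside the genes themselves lay 8 of the 9 shared regions of Kif5c, over 155 kb, and 4 of the 11 of Kif21b, over 46.6 kb, while the other 7 of Kif21b were in its flanks.

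**Figure D1:**
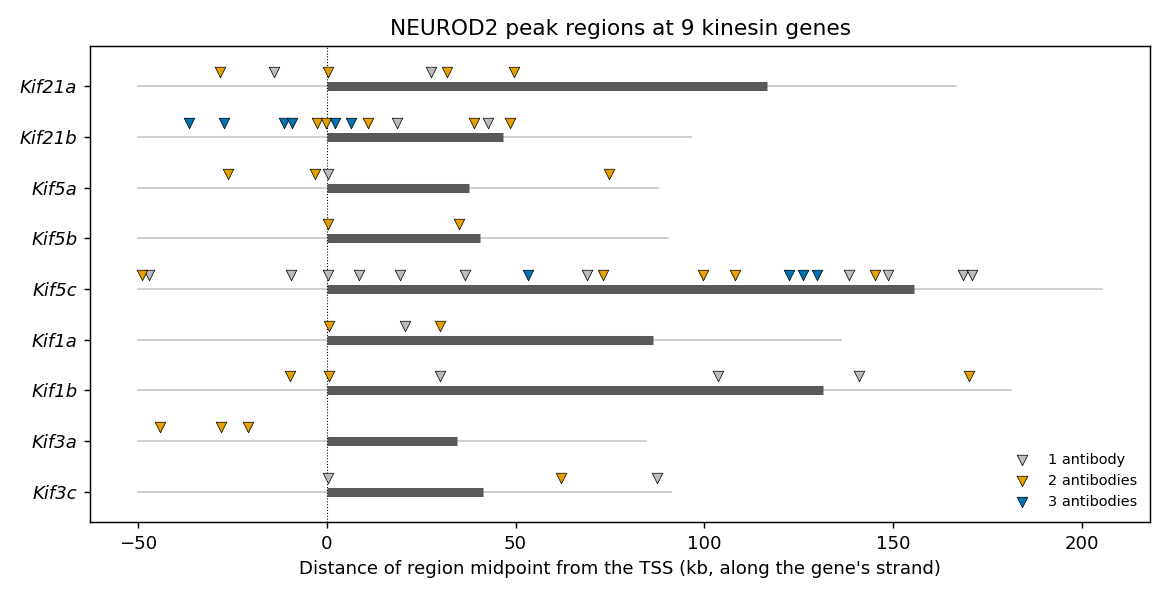
Positions of the 60 regions along the 9 kinesin genes, with the distance of each region's midpoint from the TSS in kb on the x axis, the gene body as a thick dark bar and the 50 kb flanks as thin lines. Triangles are regions, coloured by the number of antibodies with a peak; regions of all 3 antibodies appear at Kif21b and Kif5c alone.

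The 3 antibodies differed in how many kinesin regions they called, and their calls were nested. In the series as well, 32210 of the 32261 shared regions on the assembled chromosomes held both ab1 and ab2. Peaks of ab1 were present in all 60 regions, those of ab2 in 38 and those of ab3 in 10. The 22 regions with a single antibody were all ab1 regions, where 87.3% of such regions in the series were. Of the shared regions, 28 held ab1 and ab2, and 10 held all 3 antibodies, which is 26.3% (95% Wilson interval 15.0 to 42.0, counting error only) beside 22.2% of shared regions in the series. These 10 lay at 2 of the 9 genes, 6 at Kif21b and 4 at Kif5c, a share of genes near the 26.7% of protein-coding genes with such a region in their window. At least 4 were found at 2.10% of protein-coding genes and at least 6 at 0.743%. Leaving out ab1 or ab2 can by construction keep only regions with an ab3 peak. It gave the same counts, 6 at Kif21b, 4 at Kif5c and 0 at each of the other 7 genes, and adds nothing to them.

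**Figure D2:**
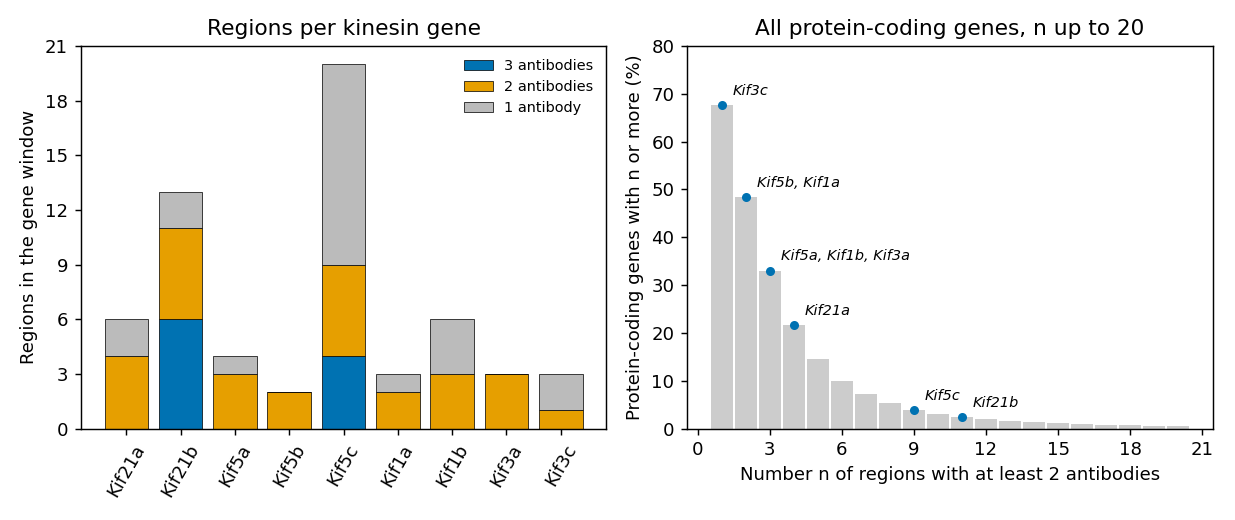
Left, the number of regions in the window of each kinesin gene, stacked by the number of antibodies with a peak. Right, the percentage of protein-coding genes with n or more shared regions for n up to 20, on which the kinesin genes are marked as points. Kif5c with 9 and Kif21b with 11 lie in the tail of these counts, which are not scaled by window length.

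Kif21b (chromosome 1, 136131389 to 136177998, plus strand) carried a cluster of regions around its TSS. From the region 27.3 kb upstream to that 6285 bp downstream, 7 shared regions were spread over 36.97 kb, and their sequence added up to 43.9% of that stretch. The region of highest score with ab2 and ab3 among all 9 genes, and with an ab1 score equal to the highest, lay 27.3 kb upstream and was 3995 bp wide. It scored 3100 with ab1, 2103 with ab2 and 519 with ab3, the last above 97.1% of ab3 peaks. This region and the one at 36.5 kb upstream lay in introns 28 and 19 of the neighbouring gene Cacna1s, which encodes a calcium channel subunit, but of all protein-coding TSSs that of Kif21b was the closest. The region at 36.5 kb upstream was weaker, scoring 323.5 (ab1), 137 (ab2) and 60.05 (ab3).

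The remaining upstream regions of Kif21b followed at shorter distances. At 11.5 kb upstream, 83 bp past the end of Cacna1s, the scores were 2858 for ab1, 1369 for ab2 and 202 for ab3. At 9.19 kb upstream they were 1067, 446 and 112 in the same order. The region at 2.75 kb upstream had no ab3 peak and scored 1113 for ab1 and 307 for ab2. The promoter itself held a region of 2516 bp whose midpoint was 189 bp upstream of the TSS, with 796 for ab1 and 219 for ab2. The promoter was therefore bound with 2 antibodies, and more weakly with both of them than the regions on either side.

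Inside Kif21b, intron 1 held 3 shared regions. At 2.11 kb past the TSS the scores were 2115 for ab1, 614 for ab2 and 54.0 for ab3, the last above only 8.62% of ab3 peaks. At 6285 bp they were 3072, 1082 and 308. At 11.0 kb only ab1, with 241, and ab2, with 98.3, had a peak. Farther on, intron 30 at 38.9 kb had 271 for ab1 and 95.7 for ab2, and a region just past the gene's end at 48.6 kb had 243 and 137. Regions with ab1 alone were found in intron 8, with a score of 64.7, and in the last exon, exon 35, with 115. The region in intron 30 lay 978 bp from the start of another annotated transcript of Kif21b, so its distance depends on the transcript used.

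**Figure D3:**
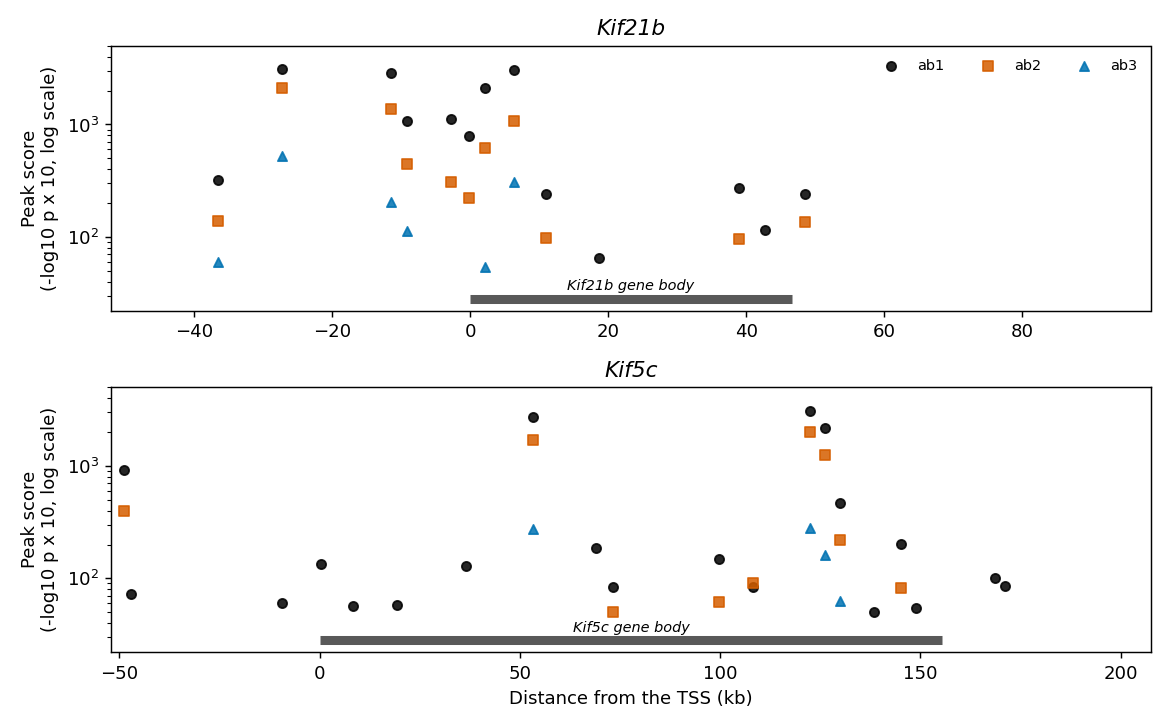
Peak scores at Kif21b (top) and Kif5c (bottom) against the distance of the region midpoint from the TSS in kb, with the score, 10 times −log10 p, on a log axis; circles are ab1, squares ab2 and triangles ab3, and the dark bar is the gene body. Regions with an ab3 peak flank the TSS at Kif21b, and at Kif5c they lie at 53.3 kb and from 122 to 129.8 kb inside the gene.

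Kif21b was selected on its closest-gene score, in which each shared region closest to the TSS counts with a weight that falls exponentially over 5000 bp. Its score was 1.05, rank 772, when the TSSs of all annotated genes competed for each region, and 2.86, rank 4, when only those of protein-coding genes did. Among all TSSs Kif1b, another of the 9, was slightly higher, at rank 769 with a score that also rounds to 1.05. The difference between the 2 scores of Kif21b lay in the 6 upstream regions of that gene. Of these, 4 were closest to the TSS of Gm37759, annotated as antisense, and 2 to that of Gm15850, a processed transcript whose TSS was 17 bp from the midpoint of the promoter region. The threshold, the mean plus 1 SD over genes with at least 1 region, was 1.17 with all genes and 1.08 with protein-coding genes only. With all genes, 0 of the 9 kinesins passed it, where 2.70% of protein-coding genes did. With protein-coding genes only, Kif21b alone passed it, where 4.24% did. The genes with scores nearest to that of Kif21b among all TSSs were Gm14180 and Tesc above and Gucy1b2 and Llph below, with 1.05 each after rounding, and they had 11, 15, 7 and 2 shared regions in their windows, against 11 at Kif21b. Genes of like score thus differed widely in the number of regions around them.

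Kif21a (chromosome 15, 90933276 to 91049948, minus strand), the closest relative of Kif21b, was bound with ab1 and ab2 and not with ab3. Its TSS region, in intron 1 with its midpoint 324 bp past the TSS, scored 486 for ab1, the highest ab1 score of the locus, and 112 for ab2. A region 28.3 kb upstream had 378 and 164. Within the long intron 1, the region at 31.8 kb had 283 for ab1 and 211 for ab2, and that at 49.5 kb had 142 and 105.1. The order of the regions differed between antibodies, since ab2 scored highest at 31.8 kb and ab1 at the TSS. In their windows Kif21a had 4 shared regions and Kif21b 11, of which 3 and 4 lay inside the gene, and the highest ab1 score was 486 at Kif21a and 3100 at Kif21b.

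Kif5c (chromosome 2, 49619298 to 49774778, plus strand) had the most regions, 20, of which 11 were seen with ab1 alone. No shared region lay between 49.0 kb upstream and 53.3 kb downstream of its TSS. At the TSS itself ab1 alone had a peak, in exon 1 at 372 bp, with a score of 135. The region 49.0 kb upstream scored 920 for ab1 and 398 for ab2.

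The 4 Kif5c regions with peaks of all 3 antibodies were deep in the gene. In intron 2, at 53.3 kb, the scores were 2728 for ab1, 1721 for ab2 and 274 for ab3. In intron 18, at 122 kb, they were 3100, 2018 and 278, the highest of the locus with each antibody. Intron 21 held a region at 126 kb, with 2177, 1264 and 162, and a region at 129.8 kb, with 465, 220 and 62.6. The last 3 regions fell within 8.68 kb, between 25.6 and 33.0 kb before the end of the gene. The nearest TSS of a protein-coding gene was that of Lypd6b, between 38546 and 45922 bp away, although shorter annotated transcripts of Kif5c start 2759, 1002 and 3048 bp from them. The 4 weak shared regions within the gene, in introns 4, 11, 12 and 25, had ab1 scores between 82.9 and 202 and ab2 scores between 50.01 and 90.5.

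The other kinesin-1 genes were less bound. At Kif5a (chromosome 10, 127225696 to 127263348, minus strand), which is expressed mainly in neurons, all 3 shared regions were closest to other genes. They lay 634 bp from the TSS of Mbd6, with 1056 for ab1 and 562 for ab2, 140 bp from the TSS of Dctn2, with 286 and 129, and 1457 bp from the TSS of Arhgef25, with 1474 and 681. Dctn2 encodes a dynactin subunit, part of the complex that serves the motor dynein. The TSS of Kif5a had a region with ab1 alone, at 342 bp in the 5′UTR exon, with a score of 98.4. At Kif5b on chromosome 18, the broadly expressed member, the TSS region at 279 bp scored 50.8 for ab1 and 88.1 for ab2, close to the lowest scores of the lists for ab1. A region 35.1 kb into the gene, in intron 25, was stronger, with 639 and 275.

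Both kinesin-3 genes were bound at the TSS with ab1 and ab2. At Kif1a (chromosome 1, 93015464 to 93101822, minus strand), the region at 587 bp in intron 1 scored 801 for ab1 and 407 for ab2. A region in intron 10 at 30.1 kb scored 348 and 215. At Kif1b (chromosome 4, 149176319 to 149307692, minus strand), the TSS region at 453 bp scored 261 for ab1 and 289 for ab2, and a region 9.84 kb upstream scored 278 and 156. The remaining shared region, 170 kb from the Kif1b TSS, lay 88 bp from the TSS of Cenps and scored 63.4 and 81.9. On the unscaled scores, the TSS regions of Kif5b and Kif1b and the Cenps region were among the 5 of 38 shared regions whose ab2 score was above the ab1 score, where 10.8% of the regions with both antibodies in the series were.

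The kinesin-2 genes had no shared region in their bodies. The 3 shared regions of Kif3a (chromosome 11, 53567379 to 53601967, plus strand) were all upstream, in introns of Sept8, which encodes a septin. At 44.2 kb upstream the scores were 288 for ab1 and 192 for ab2, at 28.01 kb they were 53.1 and 65.7, and at 20.9 kb they were 118 and 53.0. No peak of any antibody lay within 1 kb of the Kif3a TSS, the only such case among the 9 genes. Kif3c (chromosome 12, 3365190 to 3406494, plus strand) had a TSS region with ab1 alone, at 262 bp, whose score of 330 was higher than the ab1 score at the Kif5b and Kif1b TSSs. Its shared region, at 282 and 117, was 358 bp from the TSS of Asxl2.

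A shared region within 1 kb of the TSS was found at 5 of the 9, Kif21a, Kif21b, Kif5b, Kif1a and Kif1b, where 20.8% of protein-coding genes had one. With a region of any antibody the count was 8 of 9, where 37.2% had one, and the additional TSS regions of Kif5a, Kif5c and Kif3c held ab1 peaks only. None of the TSS regions held an ab3 peak. Of the 10 shared regions with the highest ab1 scores, 9 were at Kif21b and Kif5c and 1 at Kif5a, and of the 10 with the highest ab2 scores, 8 and 2. In both rankings, made after the values were seen, 0 were within 1 kb of a kinesin TSS.

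Over all 38 shared regions, 19 lay in introns of the kinesin gene, 1 in a 5′UTR exon, 14 upstream and 4 downstream. Those inside the gene made up 52.6% (37.3 to 67.5). Of the 18 outside it, 9 were within another protein-coding gene. Each gene was given 1 TSS here and below, that of its longest-span transcript. The kinesin TSS was the closest of the TSSs of all annotated genes for 12 regions, 31.6% (19.1 to 47.5), and the closest of the protein-coding TSSs for 24, 63.2% (47.3 to 76.6). A position within 1 kb of any such TSS was found for 10 of 38, 26.3%, beside 15.7% of shared regions in the series. The Kif21b region in intron 30, 978 bp from the start of another transcript, was not among these 10. The regions were wider than most, with a median of 1189 bp against 865 bp.

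The extended E-box was present in the central 200 bp of 22 of the 38 shared regions, 57.9% (42.2 to 72.1), beside 59.7% of shared regions in the series. The share differed with position. Of the 28 regions beyond 1 kb of any TSS, 21 held it, 75.0% (56.6 to 87.3), where 65.7% did in the series. These 21 include the intron 30 region of Kif21b, 978 bp from the start of another transcript. Of the 10 within 1 kb, 1 held it, 10% (1.79 to 40.4), where 27.2% did. That region was the one 11.5 kb upstream of Kif21b, which is close to the TSS of Gm37759, and the shared regions at the TSSs of Kif21a, Kif21b, Kif5b, Kif1a and Kif1b held no extended E-box in their central 200 bp. GC content also differed by position, with a median of 67.2% within 1 kb and 53.0% beyond, and 66% and 49.5% in the series. Its part in the E-box difference was not tested.

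The forms of the core were unequal. CAGATG or its reverse complement CATCTG was in the central 200 bp of 19 of 38 regions, where 43.1% held it in the series, and CAGCTG in 9, where 28.1% did, both counted without regard to the flanking base. CATATG was in 0 of 38, where 11.7% held it in the series. The upper limits of 7.89% (3 counts of the total) and 9.18% (Wilson) cover counting error only. They take the regions as independent draws, although 20 of the 38 lie at Kif21b and Kif5c, so they do not show a depletion, which was not tested. The site printed for the region 27.3 kb upstream of Kif21b is a CATATG, 203 bp from the midpoint and so outside the central window.

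In some regions the antibodies placed their peaks differently. The ab1 and ab2 midpoints were a median of 40.5 bp apart in the 28 regions with these antibodies alone and 54 bp apart in the 10 with all 3. The largest distance between any of the midpoints in those 10 was 887 bp, at the Kif21b region 27.3 kb upstream. There the central 200 bp held no CANNTG word at all, and the whole region held 10 extended E-boxes. The ab3 peak of that region was 1527 bp wide, against 3931 bp for ab1, and its midpoint lay 851 bp upstream of the midpoint of the merged region, where the 200 bp around it held 1 extended E-box. At 6285 bp downstream the reverse was found, since the 200 bp around the ab2 midpoint held 1 extended E-box and those around the ab1 and ab3 midpoints 0. Over the 10 regions with all 3 antibodies, 7 held an extended E-box around the region midpoint, where 63.5% did in the series, and 9 around the ab3 midpoint, a position added after the values were seen, where 73.3% did. All 10 held it somewhere in the region. Of these 10, 9 lay beyond 1 kb of any TSS, where 92.8% of such regions in the series did.

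**Figure D4:**
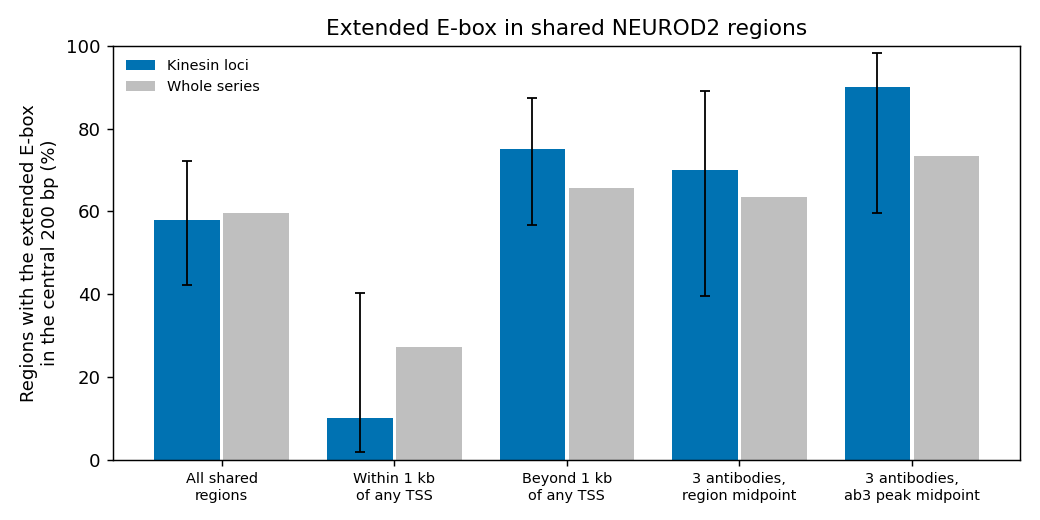
Percentage of shared regions with the extended E-box in 200 bp, for the kinesin loci (blue, with 95% Wilson intervals) and the whole series (grey), over all shared regions, those within and beyond 1 kb of any TSS, and those with all 3 antibodies around the region midpoint and the ab3 peak midpoint. The kinesin intervals are wide, and the whole-series share lies within each of them. The TSS of each gene is that of its longest-span transcript.

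RefSeq promoter sequences (build GRCm38.p6, from 250 bases before to 50 after the start) were found for 6 of the 9 genes, Kif21a, Kif5c, Kif1a, Kif1b, Kif3a and Kif3c, with 8 entries. An extended E-box was in 5 of these 8, beside 26.3% of 32851 promoters of this length. The entries of Kif1b overlap and share their word, so that by gene it was 4 of 6, Kif1a, Kif1b, Kif3a and Kif3c. Kif3a had no NEUROD2 peak within 1 kb of its TSS, so that the word was present there without a called peak. For Kif1b, and for the Kif1a entry near its TSS, the word lies in the 150 bases before the RefSeq start, within the shared region there. That of Kif1b is shown in capitals below.
Kif1b promoter, chr4:149307734-149307883, minus strand: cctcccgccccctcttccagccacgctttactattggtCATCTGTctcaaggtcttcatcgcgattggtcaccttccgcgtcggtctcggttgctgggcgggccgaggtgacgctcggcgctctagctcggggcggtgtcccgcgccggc

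Genes that work with these motors were counted in the same way. Of 17 kinesin partners and adaptors, all 17 had a shared region in their window, 11 had one with all 3 antibodies and 7 had a shared region within 1 kb of the TSS, and the median was 4 shared regions. The shares of protein-coding genes were 67.6%, 26.7% and 20.8% for these counts. Trak1, which links kinesin-1 to mitochondria, had 29 shared regions, 11 of them with all 3 antibodies. Grip1, which links kinesin-1 to AMPA receptor cargo, had 12, and Klc1, a kinesin-1 light chain, had 8, of which 3 held all 3 antibodies. Among 17 other kinesins of interphase cells, 16 had a shared region, 5 one with all 3 antibodies, a share near that of protein-coding genes, and 6 one at the TSS, with a median of 3. The most were at Kif26b, with 18, and at Kif6 and Kif16b, with 11 each, while Kif9 had 0.

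Kinesins of the mitotic spindle act in dividing cells. Of 15 such genes, 10 had a shared region, a share near the 67.6% of all protein-coding genes. A shared region with all 3 antibodies was found at 1 of the 15 and a shared region within 1 kb of the TSS at 1, beside 26.7% and 20.8% of protein-coding genes. The median was 1, as over protein-coding genes, and the most were 3 regions each, at Kif22, Kifc5b and Kif18b. The 5 without any shared region were Kif11, Kif20a, Kif20b, Kif23 and Kif4. Per 100 kb of window the median was 0.621 in this list, 1.72 for the other interphase kinesins, 2.74 for the partners and 1.85 for the 9 neuronal kinesins, beside 0.9499 over protein-coding genes. The difference between the lists was not tested.

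The edge of the window affected single regions. The outermost peaks counted were those of ab2 and ab1 upstream of Kif5c, 49.02 and 48.96 kb from the gene with scores of 398 and 920. The nearest peaks left out were an ab2 peak 50.6 kb past the end of Kif21b, with a score of 60.5, and an ab1 peak 55.8 kb past the end of Kif5c, with 56.4.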

How the data were processed

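The authors mapped single-end reads from each immunoprecipitation to mm10 with Bowtie, collapsed duplicates, dropped reads that mapped more than once, and ran MACS for each antibody against the GFP library of the matching host species. The deposited score of a peak is 10 × −log10 of the p-value from MACS, and the paper describes no scaling of it between libraries. Numbers of reads are not in the peak lists, so depth per library is not given here. The lists give starts from 0, and positions printed here count from 1.

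Peaks were merged where they overlapped by at least 1 bp. Midpoints were placed on GRCm38 (mm10) with GENCODE release M21, and the longest-span transcript stood for each gene. The closest-gene score used a decay of 5000 bp and, unlike a score corrected with random positions, was left as a plain sum. Intervals of shares are 95% Wilson intervals and cover counting error only. The reference genome is not of the BALB/c strain, so motif bases that differ in that strain were missed. The 9 members, the other gene lists and the calculations were chosen with earlier results of these data known. Named regions were the strongest of each gene, those at its TSS and the 10 strongest of all by summed score, which weights ab1 most, and other regions of Kif21b, Kif5c and their relatives were added after their values were seen. Of each other list, the 3 genes with most shared regions were named, with ties ordered by summed score. Alternatives were peaks scoring 100 or more, a required overlap of 50%, other numbers of antibodies, each antibody left out, the position of the highest-scored peak, flanks of 10 and 100 kb, all transcripts, protein-coding TSSs only, 5 kb from the TSS, other motif windows and words, and decays of 1000 and 50000 bp. Merging, distances, motif search and score were tested on simulated data with known answers. Calculations ran in Python 3.11.15 with scipy 1.17.1 for intervals, pysam 0.24.0 for genome sequence, numpy 2.4.6 and pandas 2.3.3 for tables, and matplotlib 3.10.9 for plots.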

Additional observations from a re-analysis of the deposited data

How the results depend on the processing

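With 1 library per antibody and 1 condition, the spread between biological replicates is unknown, and the short ab3 list limits every statement on all 3 antibodies. The number of shared regions at the 9 loci was 10 with all 3 antibodies required and 60 with any antibody, and between 10 and 38 with each antibody left out. The number of genes with a shared TSS region was 0, 8 and between 0 and 5 in these settings. The share with the extended E-box was between 57.9% and 80% with each antibody left out, 92.1% in the whole region, 81.6% for any CANNTG, 42.1% in the central 100 bp and 52.6% around the highest-scored peak's midpoint. The share inside the gene was 46.4% at a score of at least 100, 60% with all 3 antibodies, 58.3% with any, between 52.6% and 60% with each antibody left out, 76.9% with a 10 kb flank and 40.8% with a 100 kb flank. The share closest to the kinesin TSS was 20% with all 3 antibodies, between 20% and 31.6% with each antibody left out, 42.3% with a 10 kb flank and 63.2% with protein-coding TSSs only. The closest-gene score of Kif21b was 2.86 with protein-coding TSSs only, 0.123 with a decay of 1000 bp and 3.10 with a decay of 50000 bp, and between 0.930 and 1.05 with each antibody left out. Of 69 recomputed values, 43 stayed close to the main value. For counts this meant within 1.5 times, and for the share with all 3 antibodies within the Wilson interval. For the other shares and the score it meant within 1 SD over the 3 antibodies' own peak lists. Of 81 recomputed counts at single loci, 44 stayed within 1.5 times. The settings are not independent checks. Leaving out ab3 changed no value, since every shared region held ab1 and ab2, and leaving out ab1 or ab2 kept only regions with an ab3 peak.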
